A study of Mus musculus with 40 samples.

Results

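The expression of 7 genes of cholesterol supply was followed through every group of an aortic RNA-seq study of calcineurin (Cn) and angiotensin-II (Ang-II). The genes are Hmgcs1, Idi1, Fdps, Sqle, Lss, Insig1, and Srebf2. They were named by gene symbol, with earlier results of these data known, they are 7 of 17809 genes listed in the study, and all 7 were listed and tested in both of its experiments. The first 5 encode enzymes of cholesterol synthesis and the other 2 encode regulators of it, so that no receptor for cholesterol uptake is among them.

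In the genotype experiment, 22 libraries were made from aortas of male mice with a floxed CnB1 gene (Ppp3r1, the regulatory subunit of the phosphatase Cn) that were either negative for Myh11-CreERT2 (Cn-Ctl) or positive for it (SM-Cn-/-). These are the genotypes in the labels, while the methods of the study also list Cre-positive mice with unfloxed CnB1 among Cn-Ctl mice. The Myh11 promoter drives this Cre in smooth muscle cells, and tamoxifen activates it. All of these mice, controls included, received 1 mg of tamoxifen daily for 5 days and were used 6 weeks later, either untreated or 2, 6, or 24 h after implantation of a minipump that delivered Ang-II, a hormone that contracts vessels and raises blood pressure, at 1 µg/kg/min. Each group had 3 libraries, except for untreated Cn-Ctl and Cn-Ctl at 24 h, with 2 libraries each. Per the methods of the study, 1 untreated Cn-Ctl replicate was discarded because it deviated from the other 2 in a principal component analysis. The spread of untreated Cn-Ctl may therefore be understated. No reason was given for the missing replicate of Cn-Ctl at 24 h. In the CsA experiment, 18 libraries came from male C57BL/6J mice without a pump (WT) or with a minipump of cyclosporin A (CsA, a Cn inhibitor) for 5 days, either untreated or after 2 or 24 h of the same dose of Ang-II, with 3 libraries per group. Untreated CsA mice carried a pump and untreated WT mice did not, so the drug and its pump cannot be told apart. No age was given in the labels. Per the methods of the study, treated Cn-Ctl, WT, and CsA mice were kept only above a set systolic pressure. Treated SM-Cn-/- mice were not selected by pressure, but those in which CnB1 deletion could not be shown were removed. CsA mice were also removed if dephosphorylation of NFAT, a substrate of Cn, was not inhibited in the thymus.

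Each library was a pool of 3 aortas stripped of adventitia and perivascular tissue, and mice were not measured singly, so that the p-values measure the spread between pools. Values are given as signal, the reads of a gene over the authors' scaled library size. Depth was 2728007 to 10250178 reads per library in the genotype experiment and 18976266 to 38900009 in the CsA experiment. Ppp3r1 itself, read as a check of the labels, overlapped between the genotypes, with a signal of 45.7 to 134 in the 10 Cn-Ctl libraries and of 41.8 to 118 in the 12 SM-Cn-/- libraries. A value per gene does not show the floxed exons alone and other aortic cells keep the gene. The study itself checked CnB1 recombination by PCR on a piece of aortic tissue. It also reported a loss of CnB protein and of the catalytic subunit CnA in SM-Cn-/- aortic extracts. As a check of tissue, the summed signal of 8 smooth muscle markers was at least 16623 in every library. It was lowest in untreated CsA, at 16623 to 18702, beside 25857 to 35413 in untreated WT.

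Cells make cholesterol from acetyl-CoA through mevalonate and farnesyl diphosphate to squalene and lanosterol. When membranes of the endoplasmic reticulum run low in sterol, the escort protein SCAP carries the membrane-bound factor SREBP-2 to the Golgi, where proteases release the part that enters the nucleus and activates the genes of this pathway. INSIG proteins hold SCAP back when sterol is plentiful, and the Insig1 gene is itself a target of SREBP, which closes a feedback loop. In the vessel wall the pathway supplies membrane sterol and the isoprenoids that anchor small GTPases.

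Promoters are shown for 3 members, the enzyme gene Hmgcs1 and the regulators Insig1 and Srebf2. RefSeq (GRCm38.p6) windows of 300 bases, from 250 before to 50 after the transcription start, were found for 5 of the 7 genes, and Sqle and Fdps had none in the table. Hmgcs1, Insig1, and Srebf2 lie on the plus strand, and the stretches below are chr13:119690101-119690350, chr5:28071162-28071362, and chr15:82147019-82147180. Capitals mark ATTGG, which is the CCAAT box read from the other strand, and TCACCCCAC, a match to the sterol regulatory element motif TCACNCCAC.
Hmgcs1: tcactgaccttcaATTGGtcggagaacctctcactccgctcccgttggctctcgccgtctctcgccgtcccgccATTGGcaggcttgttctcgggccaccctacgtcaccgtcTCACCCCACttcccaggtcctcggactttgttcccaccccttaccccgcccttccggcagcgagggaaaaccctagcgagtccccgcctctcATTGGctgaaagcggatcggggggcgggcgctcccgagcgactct
Insig1: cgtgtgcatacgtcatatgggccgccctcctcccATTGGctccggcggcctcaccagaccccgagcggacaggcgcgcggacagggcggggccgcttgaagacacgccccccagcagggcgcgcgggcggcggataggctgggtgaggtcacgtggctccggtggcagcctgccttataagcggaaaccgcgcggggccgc
Srebf2: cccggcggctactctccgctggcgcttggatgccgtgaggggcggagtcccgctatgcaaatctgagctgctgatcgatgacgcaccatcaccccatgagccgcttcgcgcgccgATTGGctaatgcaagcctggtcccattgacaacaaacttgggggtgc
In the full windows, both strands searched, CCAAT was present in all 5 genes with a window, against 37.4% of 32851 RefSeq windows of the same length. Hmgcs1 held 4 matches and Idi1 held 2, and Insig1, Lss, and Srebf2 held 1 each. TCACNCCAC was found only in Hmgcs1, 137 bases before the start, and in 1.24% of all windows. The shorter motif CACNCCAC, which lies within the longer one, was also found in Insig1 on the minus strand 9 bases before the start, outside the printed stretch, and in 6.24% of all windows. GGGCGG, the GC box, was present in all 5 and in 35.7% of windows, while GGAAA, the core motif of the Cn-dependent NFAT factors, was present in Hmgcs1, Idi1, and Insig1 and in 61.3% of windows. A match describes letters and not a bound factor.

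Whether Ang-II changes these genes in control aortas was first examined in Cn-Ctl mice. Sqle, Idi1, and Fdps rose at 2 h, the other 4 genes did not pass the test at that time, and the Cn-Ctl group mean of each of the 7 genes was highest at 24 h. At 24 h, 5 of the 7 genes had risen by limma with Benjamini-Hochberg adjustment over all 14424 protein-coding genes tested, of which 3.22% were called higher. Sqle and Fdps rose most, by 2.38 and 2.41 on the log2 scale. The median log2 fold change over the 7 genes was 1.28, beside -0.02 over all genes tested. Every library at 24 h lay above both untreated libraries for all 7 genes, as it did for 25.3% of all genes. In bulk tissue, a change in the cells present and a change in the RNA per cell cannot be told apart.

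Hmgcs1 (ENSMUSG00000093930, chromosome 13, 119690379 to 119708260, plus strand in GRCm38) encodes the synthase that makes HMG-CoA, from which mevalonate is formed. Its signal was 59.6 and 64.2 in the untreated Cn-Ctl libraries, 116, 81.9, and 123 at 2 h, 69.2, 67.8, and 60.3 at 6 h, and 148 and 130.1 at 24 h. The 2 h and 24 h libraries lay above the untreated ones and those at 6 h overlapped with them. The log2 fold change was 0.76 ± 0.28 (SE) at 2 h (limma, Benjamini-Hochberg adjusted p = 0.1198), which did not pass the threshold of 0.05, and 1.157 ± 0.31 at 24 h (adjusted p = 0.0269). The 24 h call of Hmgcs1 was lost when any 1 of the 4 libraries was left out (adjusted p = 0.0920 to 0.169).

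Idi1 (ENSMUSG00000058258, chromosome 13, 8885501 to 8892451, plus strand) encodes the isomerase that interconverts the 5-carbon isoprene units. In Cn-Ctl aortas its signal was 26.0 and 21.99 untreated, 60.1, 37.3, and 68.7 at 2 h, 22.4, 14.4, and 19.6 at 6 h, and 100.1 and 69.0 at 24 h. All libraries at 2 h and 24 h stood above the untreated ones, and at 6 h they overlapped. Idi1 rose by 1.15 ± 0.33 (log2 ± SE) at 2 h (limma adjusted p = 0.0425) and by 1.78 ± 0.37 at 24 h (adjusted p = 0.00550).

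Fdps (ENSMUSG00000059743, chromosome 3, 89093588 to 89101959, minus strand) encodes farnesyl diphosphate synthase, at the branch point between sterols and isoprenoids. Cn-Ctl libraries had 21.6 and 38.6 untreated, 65.1, 48.9, and 86.4 at 2 h, 29.3, 29.1, and 45.3 at 6 h, and 154 and 158 at 24 h. The 24 h pair exceeded every other library of the genotype experiment. Its rise was 1.156 ± 0.34 at 2 h (limma adjusted p = 0.0452) and 2.41 ± 0.37 at 24 h (adjusted p = 0.000672).

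Sqle (ENSMUSG00000022351, chromosome 15, 59315077 to 59331192, plus strand) encodes squalene epoxidase, which catalyses the first oxygenation of sterol synthesis. Its Cn-Ctl values were 23.8 and 15.97 untreated, 63.9, 50.7, and 64.1 at 2 h, 28.0, 28.8, and 28.7 at 6 h, and 101 and 106 at 24 h. Sqle was the only member whose 3 libraries at 6 h all lay above the untreated ones, which held for 17.4% of all genes. It rose by 1.58 ± 0.33 at 2 h (limma adjusted p = 0.00421) and by 2.38 ± 0.37 at 24 h (adjusted p = 0.000641), and the 0.54 at 6 h did not pass (adjusted p = 0.456).

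Lss (ENSMUSG00000033105, chromosome 10, 76531588 to 76557138, plus strand) encodes lanosterol synthase, which closes the sterol rings. Its signal in Cn-Ctl was 16.4 and 20.7 untreated, 15.1, 13.9, and 19.2 at 2 h, 10.2, 18.2, and 17.4 at 6 h, and 41.4 and 49.8 at 24 h. Lss thus stood high at 24 h alone, where it rose by 1.28 ± 0.32 (limma adjusted p = 0.0197). At 2 h its difference was -0.20 (adjusted p = 0.790).

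Insig1 (ENSMUSG00000045294, chromosome 5, 28071363 to 28078662, plus strand) encodes the sterol-dependent anchor of SCAP. The 2 untreated Cn-Ctl libraries differed for this gene, with 42.5 and 81.7, beside 68.5, 55.7, and 73.3 at 2 h, 40.1, 43.8, and 48.1 at 6 h, and 87.2 and 94.9 at 24 h. No change of Insig1 passed the test in Cn-Ctl, and the log2 fold change at 24 h was 0.62 ± 0.30 (limma adjusted p = 0.259).

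Srebf2 (ENSMUSG00000022463, chromosome 15, 82147181 to 82205379, plus strand) encodes SREBP-2. Its values were 59.8 and 56.7 untreated, 120.1, 81.1, and 76.5 at 2 h, 58.6, 49.7, and 68.2 at 6 h, and 108 and 90.2 at 24 h. The 2 h and 24 h libraries lay above the untreated pair, but neither the 0.63 at 2 h (limma adjusted p = 0.144) nor the 0.76 at 24 h (adjusted p = 0.104) passed. Transcript levels do not report the cleavage by which SREBP-2 is activated.

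At 2 h, 3 of the 7 genes were called (Sqle, Idi1, and Fdps), against 4.72% of all genes called higher, and 5 had all libraries above the untreated ones, against 20.6% of all genes. At 6 h limma called 0 of 7 in Cn-Ctl (2.72% of all genes higher and 1.25% lower), with 0 at an unadjusted p under 0.05 and 0 by edgeR or DESeq2. The 24 h count rests on few libraries. It fell to 3 without untreated replicate 2 and without 24 h replicate 3, each time Sqle, Idi1, and Fdps, and to 2 (Sqle and Fdps) without untreated replicate 3, where the remaining lone library was taken to vary like the other groups. Without 24 h replicate 2, it was 4. The 2 h count fell to 1 without either untreated library or without 2 h replicate 1 or 3.

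**Figure D1:**
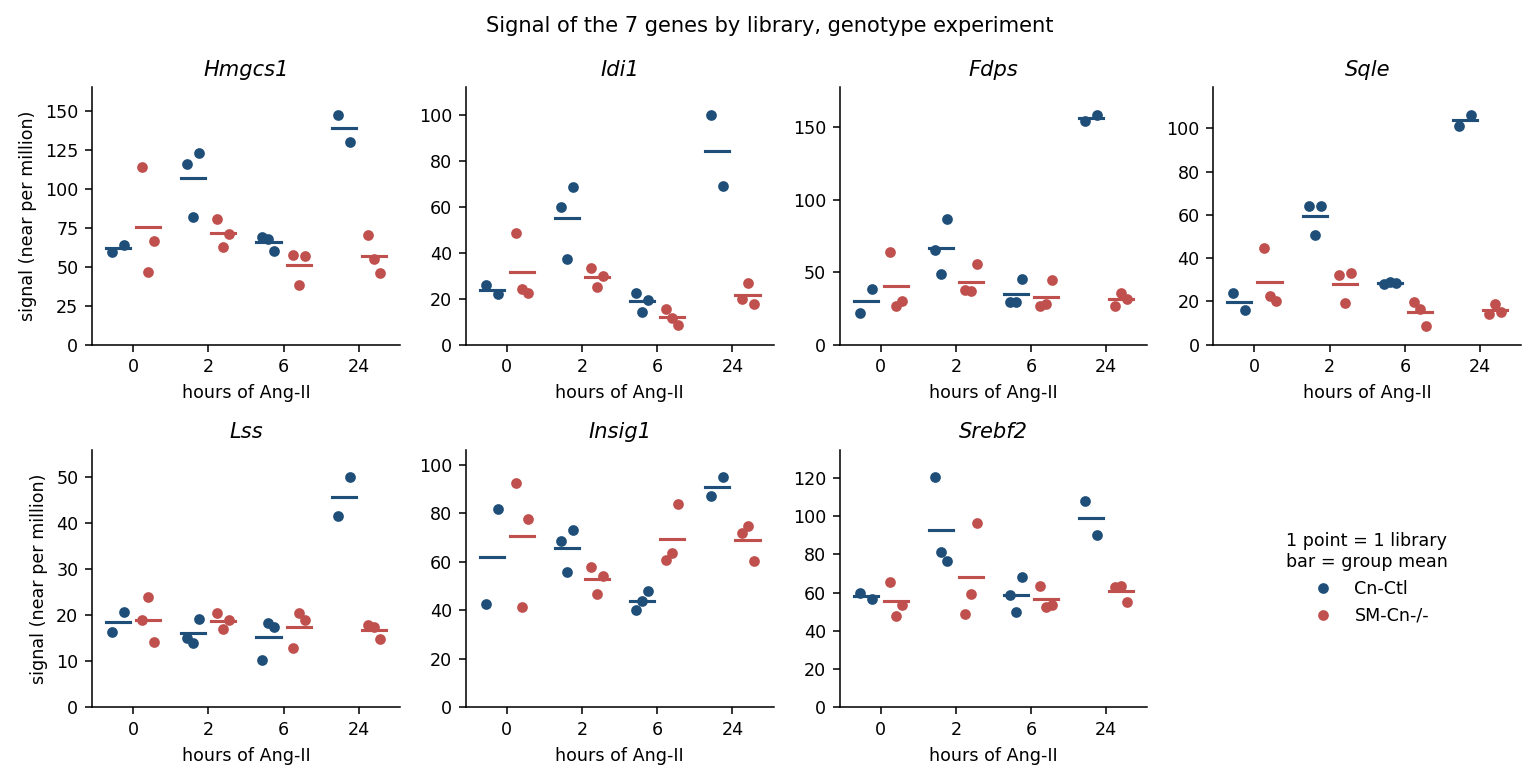
Signal (reads divided by the scaled library size) of the 7 genes in the genotype experiment against hours of Ang-II, 0 being untreated, with a point for each library and a bar for each group mean. In Cn-Ctl, Sqle went from 15.97 and 23.8 untreated to 101 and 106 at 24 h, while the SM-Cn-/- libraries at 24 h lay between 14.05 and 18.9.

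The same infusion was then examined in SM-Cn-/- mice. None of the 7 genes rose at any time. At 24 h their median log2 fold change was -0.26, with a range from -0.76 for Sqle to 0.13 for Srebf2. Limma called 0 of 7 at 24 h, against 0.638% of all genes higher and 0.153% lower, with 1 (Sqle) at an unadjusted p under 0.05 and 0 by edgeR or DESeq2.

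In the 3 untreated SM-Cn-/- libraries, Sqle had a signal of 44.9, 22.3, and 20.1, followed by 32.2, 19.4, and 33.2 at 2 h, 19.8, 16.4, and 8.85 at 6 h, and 14.05, 18.9, and 15.04 at 24 h. Fdps had 63.5, 26.7, and 30.4 untreated, 37.5, 36.8, and 55.8 at 2 h, 27.0, 27.9, and 44.6 at 6 h, and 26.6, 35.3, and 31.6 at 24 h. Idi1 had 48.6, 24.4, and 22.6, then 33.4, 25.2, and 29.8, then 15.7, 11.7, and 8.50, and at 24 h 19.7, 26.8, and 17.9. In all 3 genes untreated replicate 1 was the highest of its group. The same held for Hmgcs1, with 114, 46.6, and 66.6 untreated, 80.9, 62.9, and 71.3 at 2 h, 57.6, 38.0, and 57.1 at 6 h, and 70.5, 54.8, and 45.8 at 24 h. For Lss the untreated values were 18.9, 23.9, and 14.3, with 20.5, 16.95, and 19.0 at 2 h, 12.8, 20.4, and 18.9 at 6 h, and 17.9, 17.4, and 14.8 at 24 h, so that the 4 groups overlapped.

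Neither regulator passed the test in SM-Cn-/-. Insig1 had 92.6, 41.5, and 77.8 untreated, 57.9, 46.7, and 54.1 at 2 h, 60.6, 63.6, and 83.8 at 6 h, and 72.0, 74.7, and 60.4 at 24 h. Srebf2 had 65.3, 47.6, and 53.6 untreated, 48.8, 59.2, and 96.2 at 2 h, 63.6, 52.5, and 53.6 at 6 h, and 63.1, 63.6, and 55.0 at 24 h. Every treated group of SM-Cn-/- overlapped with the untreated one for both genes.

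At 2 h limma called 0 of the 7 genes in SM-Cn-/- (0.984% of all genes higher and 0.146% lower), with 0 at an unadjusted p under 0.05 and 0 by edgeR or DESeq2. At 6 h Idi1 fell by 1.33 ± 0.30 on the log2 scale (limma adjusted p = 0.0187), where 0.846% of all genes were called lower, and this call was lost without 6 h replicate 2 or 3 (adjusted p = 0.0730 and 0.0912). It was the only member called, and Sqle, with a log2 difference of -0.91, did not pass (adjusted p = 0.112).

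Untreated SM-Cn-/- replicate 1 stood apart, and every SM-Cn-/- comparison with untreated mice uses it. The mean centred log2 signal of the 7 genes was 0.47 in this library, above -0.36 and -0.24 in the other 2. Without it, limma called 0 of 7 at 2, 6, and 24 h, and the median log2 fold changes were 0.35, -0.11, and 0.01. Idi1 at 6 h was then at -0.98 (adjusted p = 0.114) and Sqle at 24 h at -0.41 (adjusted p = 0.654). The sum of 15 clock gene signals was 1115 in this library and 1911 and 1975 in the other 2, and their part in the result was not tested.

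Whether the level or the response differs between SM-Cn-/- and Cn-Ctl mice was tested by comparing the genotypes at each time and by the genotype by Ang-II interaction. By the labels only SM-Cn-/- mice carried the Cre, so the deletion of Cn and the activated Cre cannot be told apart. Among treated mice of this experiment, Cn-Ctl alone were selected by pressure, which the comparisons cannot separate from genotype either. Untreated, the genotypes did not differ detectably. Limma called 0 of 7 genes, against 0.0139% of all genes in either direction, with 0 at an unadjusted p under 0.05 and 0 by edgeR or DESeq2, and the median log2 difference between SM-Cn-/- and Cn-Ctl was 0.19, or -0.03 without the replicate that stood apart. The 95% interval for Sqle, -0.22 to 1.165, covers differences of over 2-fold.

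At 24 h the synthesis enzymes were lower in SM-Cn-/- aortas. All 5 enzymes were called lower by limma, beside 2.68% of all genes. The log2 differences were -1.30 for Hmgcs1 (adjusted p = 0.00738), -1.95 for Idi1 (adjusted p = 0.00127), -2.32 for Fdps (adjusted p = 0.000328), -2.67 for Sqle (adjusted p = 6.85e-05), and -1.42 for Lss (adjusted p = 0.00517). Srebf2 (-0.70, adjusted p = 0.112) and Insig1 (-0.40, adjusted p = 0.485) did not pass. For all 7 genes each SM-Cn-/- library lay below both Cn-Ctl libraries, as it did for 17.1% of all genes. Without Cn-Ctl 24 h replicate 3, the count fell to 3, which were Sqle, Idi1, and Fdps, with Hmgcs1 and Lss lost (adjusted p = 0.0635 and 0.105).

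At 2 h only Sqle was called lower, at -1.09 ± 0.30 (limma adjusted p = 0.0423, with 2.97% of all genes called lower), and this call was lost on leaving out 5 of the 6 libraries in turn, all except SM-Cn-/- 2 h replicate 3. At 6 h limma called 0 of 7 (1.98% of all genes in either direction), with 3 at an unadjusted p under 0.05 and 0 by edgeR or DESeq2. These were Sqle at -0.97 (adjusted p = 0.102), Idi1 at -0.65 (adjusted p = 0.327), and Insig1 at 0.64 (adjusted p = 0.221). Without SM-Cn-/- 6 h replicate 1, Sqle passed at 6 h (-1.21, adjusted p = 0.0394). Insig1 had the opposite sign to Sqle and Idi1 at that time, with 40.1 to 48.1 in the 3 Cn-Ctl libraries and 60.6 to 83.8 in the 3 SM-Cn-/- libraries.

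The response itself differed between genotypes at 24 h for 3 genes. The interaction, the log2 fold change in SM-Cn-/- minus that in Cn-Ctl, was -3.14 ± 0.47 (SE) for Sqle (95% interval -4.12 to -2.16, limma adjusted p = 0.00299), -2.68 ± 0.48 for Fdps (-3.68 to -1.67, adjusted p = 0.0134), and -2.27 ± 0.47 for Idi1 (-3.25 to -1.29, adjusted p = 0.0299). Of all genes tested, 0.354% had a lower response in SM-Cn-/- by this test. Hmgcs1 (-1.49, adjusted p = 0.0901) and Lss (-1.44, adjusted p = 0.131) passed only without adjustment, and for Srebf2 (-0.62) and Insig1 (-0.58) the intervals included 0.

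Without untreated SM-Cn-/- replicate 1, the interaction was -2.79 for Sqle (limma adjusted p = 0.00793), -2.29 for Fdps (adjusted p = 0.0314), and -1.92 for Idi1 (adjusted p = 0.0714), so that 2 calls remained. Sqle passed on leaving out each of the 10 libraries in turn (adjusted p = 0.00247 to 0.0442). Idi1 was lost in 7 of these 10 (adjusted p = 0.0507 to 0.153), all except SM-Cn-/- untreated replicates 2 and 3 and 24 h replicate 2. Fdps was lost in 2, which were Cn-Ctl untreated replicate 2 and Cn-Ctl 24 h replicate 3, where Sqle alone was called. At 2 h limma called 0 interactions among the 7 genes (0.513% of all genes), with 3 at an unadjusted p under 0.05, 0 by edgeR, and 1 by DESeq2. At 6 h it called 0 (0.0624% of all genes), with 2 at an unadjusted p under 0.05 and 0 by edgeR or DESeq2.

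**Figure D2:**
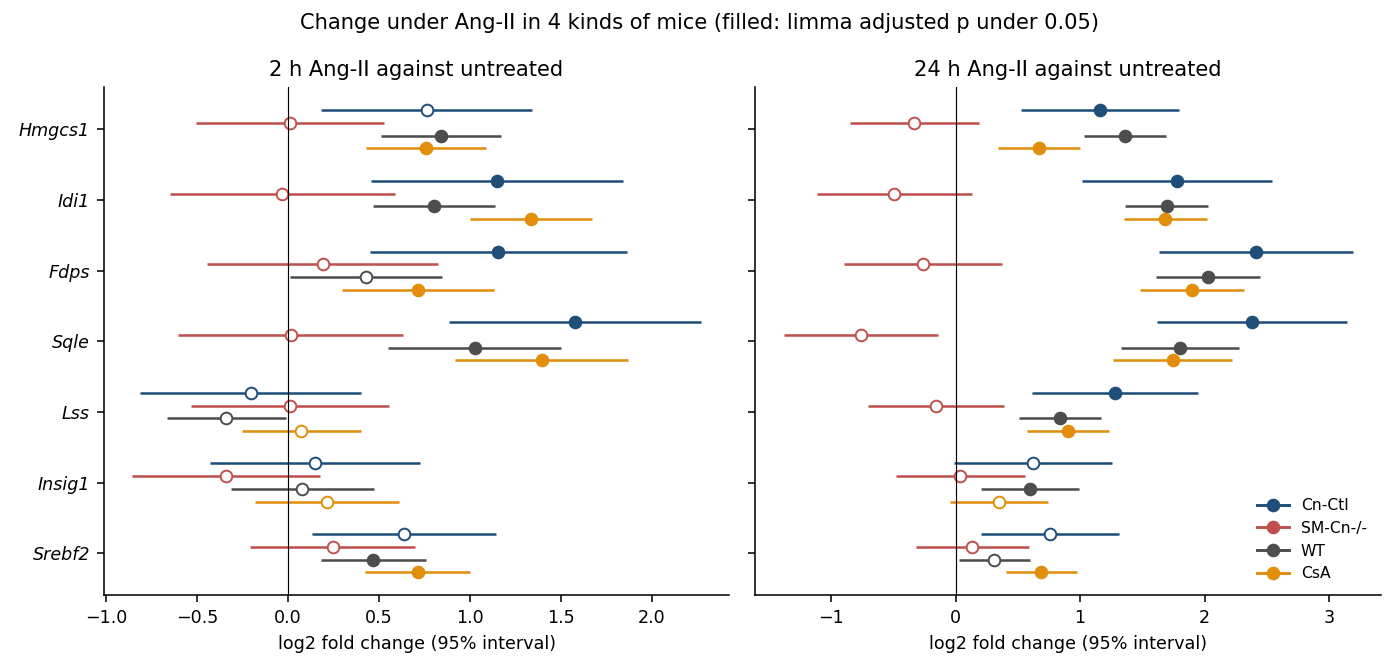
Log2 fold change of each of the 7 genes after 2 h and 24 h of Ang-II against untreated mice of the same kind, for WT, CsA, Cn-Ctl, and SM-Cn-/- mice, with the 95% interval from limma and a filled symbol where the adjusted p was under 0.05. At 24 h, Sqle stood at 2.38 in Cn-Ctl, 1.80 in WT, and 1.74 in CsA, and at -0.76 in SM-Cn-/-.

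The order of the group means describes the same values again and adds no test. Among the 8 groups of the genotype experiment, Cn-Ctl at 24 h had the highest mean for all 7 genes. For Sqle it was followed by Cn-Ctl at 2 h, with means of 104 ± 3.66 (SD, n = 2) and 59.6 ± 7.69 (n = 3), and both steps down from these groups were free of overlap between libraries. For Hmgcs1, Idi1, Lss, and Fdps the top step alone was free of overlap, and for Insig1 and Srebf2 no neighbouring groups were. All other neighbours in the order of each gene overlapped, which does not show that they were equal. The share of all genes free of overlap was not counted for these steps.

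The second experiment asked the same question in WT mice and in mice under CsA. In WT mice, 6 of the 7 genes had risen at 24 h by limma, beside 18.1% of all 13738 genes tested, and the exception was Srebf2. In CsA mice, 6 had risen too, beside 5.2% of all genes, and the exception was Insig1. The untreated libraries of each kind serve in its 2 h and its 24 h comparison, so that these are not independent of each other.

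Fdps had a signal of 18.8, 18.3, and 21.3 in untreated WT libraries, 26.1, 25.4, and 27.4 at 2 h, and 74.0, 85.0, and 82.7 at 24 h. Under CsA it had 19.9, 19.5, and 26.0 untreated, 30.1, 28.6, and 53.2 at 2 h, and 92.3, 94.3, and 62.9 at 24 h. The rise at 24 h was 2.02 ± 0.20 in WT (limma adjusted p = 2.52e-06) and 1.90 ± 0.20 in CsA (adjusted p = 8.12e-05). As in Cn-Ctl, Fdps had the highest 24 h fold change of the 7 genes in both kinds of mice.

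Sqle had 17.8, 21.2, and 23.7 in untreated WT, 43.0, 35.3, and 51.5 at 2 h, and 77.6, 84.1, and 60.8 at 24 h. In CsA mice it had 15.03, 12.7, and 18.8, then 28.6, 42.2, and 57.5, and at 24 h 59.4, 57.0, and 42.5. Every step upward was free of overlap in WT, and in CsA the 2 h and 24 h libraries overlapped. Sqle rose by 1.80 ± 0.22 in WT (limma adjusted p = 2.30e-05) and by 1.74 ± 0.22 in CsA (adjusted p = 0.000629) at 24 h.

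Idi1 values were 22.2, 24.0, and 24.1 in untreated WT, 40.1, 37.0, and 47.3 at 2 h, and 78.1, 81.0, and 71.9 at 24 h. With CsA they were 19.2, 18.5, and 21.3, then 35.8, 57.0, and 62.3, and then 63.6, 72.2, and 57.3. The log2 fold changes at 24 h, 1.69 ± 0.16 in WT (limma adjusted p = 1.89e-06) and 1.68 ± 0.16 in CsA (adjusted p = 3.72e-05), lay within their errors of each other.

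Hmgcs1 differed from these genes in that CsA mice started higher. Untreated libraries had 48.7, 54.0, and 52.1 in WT and 71.3, 58.7, and 82.1 in CsA. At 2 h they had 93.5, 83.0, and 103 in WT and 91.3, 115, and 159 in CsA, and at 24 h 138, 139, and 123 in WT and 114, 113, and 108 in CsA. Its rise at 24 h was 1.36 ± 0.16 in WT (limma adjusted p = 1.02e-05) and 0.67 ± 0.16 in CsA (adjusted p = 0.0153). The CsA call of Hmgcs1 was lost without untreated replicate 2 or without 24 h replicate 1 or 2 (adjusted p = 0.0531 to 0.0669).

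Lss again moved at 24 h alone. It had 17.8, 18.5, and 16.8 in untreated WT, 14.8, 13.1, and 13.9 at 2 h, and 30.8, 35.2, and 30.3 at 24 h, and in CsA 15.9, 12.4, and 18.5, then 14.5, 14.6, and 19.9, and then 28.4, 35.4, and 24.8. At 2 h the WT libraries lay below the untreated ones, as for 20.2% of all genes, but the log2 difference of -0.34 did not pass (limma adjusted p = 0.139). At 24 h Lss rose by 0.84 ± 0.15 in WT (adjusted p = 0.000607) and by 0.90 ± 0.15 in CsA (adjusted p = 0.00308).

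Insig1 had 38.2, 46.3, and 40.9 in untreated WT, 35.0, 48.2, and 50.7 at 2 h, and 61.3, 71.1, and 58.0 at 24 h. In CsA it had 75.3, 38.6, and 45.3 untreated, 63.2, 57.9, and 56.3 at 2 h, and 64.3, 66.5, and 63.7 at 24 h. The wide spread of the untreated CsA libraries covered all treated ones, and Insig1 passed at 24 h in WT (0.60 ± 0.19, limma adjusted p = 0.0206) and not in CsA (0.35 ± 0.19, adjusted p = 0.252). The WT call was lost without untreated replicate 1 or 3 or 24 h replicate 2 (adjusted p = 0.0552 to 0.0893), and without untreated CsA replicate 1 Insig1 passed in CsA too (0.63, adjusted p = 0.0246). The difference between the responses of Insig1, -0.25 with a 95% interval of -0.81 to 0.31, was not past the threshold.

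Srebf2 had 109, 109, and 128 in untreated WT, 177, 142, and 161 at 2 h, and 137, 159.9, and 133 at 24 h, beside 84.6, 80.8, and 90.2, then 119, 158, and 146, and then 154, 153, and 110.4 in CsA. Treated libraries lay above the untreated ones in both kinds of mice. The same held at 2 h and 24 h for 20.3% and 25.4% of all genes in WT and for 20.0% and 15.2% in CsA. Srebf2 rose at 2 h in WT (0.47 ± 0.14, limma adjusted p = 0.0205) and in CsA (0.71 ± 0.14, adjusted p = 0.00208), and at 24 h in CsA (0.69 ± 0.14, adjusted p = 0.00637) with 0.31 ± 0.14 in WT (adjusted p = 0.0873). The 2 h call in WT was lost without untreated replicate 1 or 2 or without 2 h replicate 1 or 3 (adjusted p = 0.0617 to 0.0951).

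WT at 24 h had the highest group mean for Hmgcs1, Sqle, Idi1, and Lss, CsA at 24 h for Fdps and Insig1, and WT at 2 h for Srebf2. Among the neighbours in these orders, 3 pairs of groups were free of overlap for Hmgcs1, 2 each for Sqle, Idi1, and Fdps, 1 each for Lss and Srebf2, and 0 for Insig1. These counts describe the same values again, and no share of all genes was counted beside them.

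At 2 h, limma called Hmgcs1 (0.84, adjusted p = 0.00109), Sqle (1.03, adjusted p = 0.00365), Idi1 (0.80, adjusted p = 0.00174), and Srebf2 higher in WT, 4 of 7 beside 11.4% of all genes. In CsA it called Hmgcs1 (0.76, adjusted p = 0.00357), Sqle (1.395, adjusted p = 0.000647), Idi1 (1.34, adjusted p = 5.83e-05), Fdps (0.72, adjusted p = 0.0184), and Srebf2, 5 of 7 beside 12.3% of all genes. Insig1 and Lss passed in neither. The 2 h call of Fdps in CsA was lost without untreated replicate 1 or 2 or without 2 h replicate 3 (adjusted p = 0.0615 to 0.0681).

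**Figure D3:**
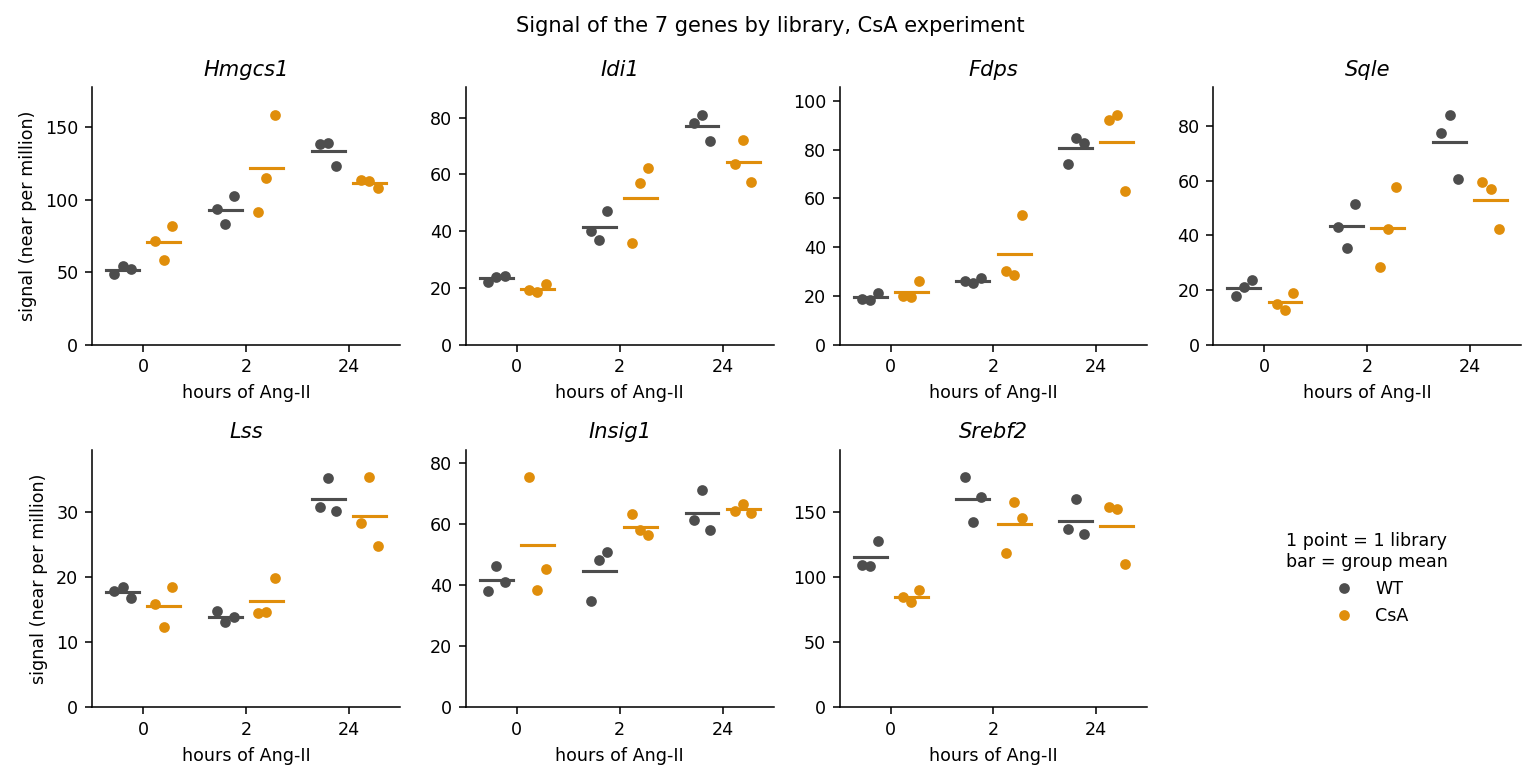
Signal (reads divided by the scaled library size) of the 7 genes in the CsA experiment against hours of Ang-II, 0 being untreated, with a point for each library and a bar for each group mean. Fdps lay between 18.3 and 21.3 in untreated WT and between 74.0 and 85.0 at 24 h, and in CsA between 19.5 and 26.0 untreated and between 62.9 and 94.3 at 24 h.

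CsA was also compared directly with WT at each time. Untreated, Hmgcs1 was higher by 0.44 ± 0.16 (limma adjusted p = 0.0492) and Srebf2 was lower, with a log2 difference of -0.43 ± 0.14 (adjusted p = 0.0284), where 13.9% of all genes were called higher and 11.4% lower. Leaving out any 1 of the 6 libraries left 0 or 1 of these calls. Both were lost without untreated WT replicate 3 or CsA replicate 1, and Hmgcs1 was lost without either other WT replicate or without CsA replicate 3, and Srebf2 without CsA replicate 2. At 2 h limma called 0 of 7 (1.33% of all genes in either direction), with 3 at an unadjusted p under 0.05, and at 24 h 0 of 7 (5.58%), with 1, while edgeR and DESeq2 called 0 at both times. Sqle was that one at 24 h, at -0.48 (adjusted p = 0.203), with 60.8 to 84.1 in WT and 42.5 to 59.4 in CsA.

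The response to Ang-II was not shown to differ between CsA and WT for any of the 7 genes. At 24 h limma called 0 interactions, beside 9.42% of all genes in either direction, with 1 (Hmgcs1) at an unadjusted p under 0.05, 0 by edgeR, and 1 by DESeq2. The difference for Hmgcs1 was -0.69 (95% interval -1.16 to -0.22, adjusted p = 0.0586). For Sqle it was -0.06 (-0.73 to 0.61), for Fdps -0.13 (-0.72 to 0.46), for Idi1 -0.01 (-0.48 to 0.46), and for Lss 0.07 (-0.40 to 0.53). Hmgcs1 passed without untreated CsA replicate 2 (-0.82, adjusted p = 0.0416), and Srebf2, at 0.38 over all libraries, passed without CsA 24 h replicate 3 (0.54, adjusted p = 0.0386). The tables of the genotype and CsA experiments were normalized separately, so that no difference between their interactions was tested. At 2 h limma called 0 interactions (0.146% of all genes), with 1 (Idi1, 0.53) at an unadjusted p under 0.05 and 0 by edgeR or DESeq2.

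How alike the 7 genes were was described by the correlation of their log2 signal over libraries. The median r between pairs was 0.70 over 22 libraries and 0.66 over 18. Fdps (r = 0.95 and 0.95), Idi1 (0.93 and 0.98), Sqle (0.92 and 0.96), and Hmgcs1 (0.92 and 0.90) followed the mean profile of the set most closely, Srebf2 (0.79 and 0.69) and Lss (0.67 and 0.80) less so, and Insig1 (0.53 and 0.64) least. The mean includes the gene itself, and libraries of 1 group share their treatment.

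The mean centred log2 signal of the set ranged from -0.35 to -0.16 in untreated Cn-Ctl, from 0.20 to 0.68 at 2 h, from -0.36 to -0.15 at 6 h, and from 1.20 to 1.26 at 24 h. In SM-Cn-/- it was at or under 0.15 in every treated library. In the CsA experiment it lay between -0.65 and -0.51 in untreated WT and between 0.56 and 0.79 at 24 h, and in CsA between -0.84 and -0.48 untreated and between 0.30 and 0.64 at 24 h.

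**Figure D4:**
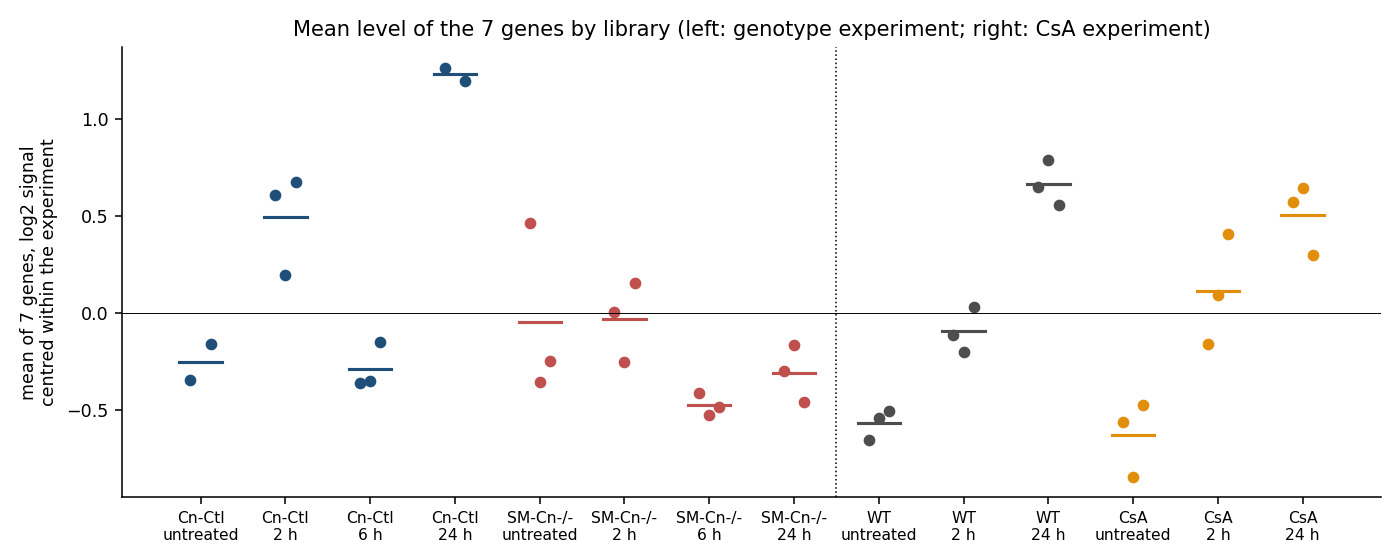
Mean over the 7 genes of the log2 signal centred on each gene's mean within an experiment, against hours of Ang-II, with a point for each library. The Cn-Ctl libraries lie between 1.20 and 1.26 at 24 h and the SM-Cn-/- libraries between -0.46 and -0.17.

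Of 13425 other genes ranked by the lower of their correlations with this profile in both experiments, the closest were Cyp51 (r = 0.91 over 22 libraries and 0.93 over 18), lanosterol demethylase, and Hsd17b7 (0.90 and 0.97) and Msmo1 (0.89 and 0.96), further enzymes that turn lanosterol into cholesterol. Copg1 (0.81 and 0.84), Kdelr2 (0.87 and 0.81), Tuba1a (0.80 and 0.82), Ssr2 (0.88 and 0.80), and Polr3d (0.80 and 0.85) were also among the 10 closest. These correlations describe the libraries and share their treatments and depths.

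The other enzymes of cholesterol synthesis, a list of 16 genes, were counted in the same comparisons. In Cn-Ctl 2 rose and 0 fell at 2 h (4.72% of all genes were called higher), 0 were called at 6 h, and 6 rose and 0 fell at 24 h (3.22% of all genes), with a median log2 fold change of 0.81 and all 16 values above 0. In SM-Cn-/- limma called 0 of 16 at 2, 6, and 24 h (0 of them rose or fell), with a median of -0.20 at 24 h. At 2 h, 5 rose and 2 fell in WT (11.4% of all genes were called higher) and 4 rose and 0 fell in CsA (12.3%), with medians of 0.05 and 0.27. At 24 h, 9 rose and 1 fell in WT (18.1%) and 9 rose and 0 fell in CsA (5.2%), with medians of 0.53 and 0.65. The 1 that fell in WT at 24 h was Tm7sf2, a sterol reductase, named here after its value was seen.

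Msmo1, Cyp51, and Hsd17b7 are named because they had among the most Ang-II calls of this list. They were also among the genes closest to the mean profile in these same libraries. Their values therefore follow from how they were picked and are no separate test. Msmo1 rose by 1.71 in Cn-Ctl at 24 h (limma adjusted p = 0.00369), by 1.53 in WT (adjusted p = 9.61e-05), and by 1.33 in CsA (adjusted p = 0.00308), and had -0.87 in SM-Cn-/- (adjusted p = 0.156). The interactions at 24 h between genotype and Ang-II were -2.58 for Msmo1 (adjusted p = 0.00809), -2.58 for Cyp51 (adjusted p = 0.0266), and -2.97 for Hsd17b7 (adjusted p = 0.0302). Limma called 4 of the 16 enzymes lower in this interaction and 0 higher, with a median of -1.14 beside 0.04 over all genes.

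Neighbouring branches of lipid metabolism were counted at 24 h as well. Of all 14424 genes tested, limma called 465 higher and 345 lower in Cn-Ctl and 92 higher and 22 lower in SM-Cn-/-. Of all 13738 genes, it called 2483 higher and 2324 lower in WT and 715 higher and 518 lower in CsA. Of 13 genes of sterol uptake and transport, 1 rose and 0 fell in Cn-Ctl, 1 rose in SM-Cn-/- (Lrp1, a large endocytic receptor, 0.85, limma adjusted p = 0.0381), 4 rose and 1 fell of 12 tested in WT, and 2 rose and 1 fell in CsA. Vldlr, a lipoprotein receptor, was the one that fell in WT (-0.95), and Lrp8, another receptor of that family, rose by 2.21 in WT and 1.55 in CsA. Of 9 genes for SREBP processing and sterol sensing, 0 were called in either genotype at any time, 1 rose and 1 fell in WT at 24 h, and 0 in CsA. Erlin1, a sterol-sensing protein of the endoplasmic reticulum, was the one that rose in WT (0.84, adjusted p = 3.26e-05).

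Of 9 tested genes of the isoprenoid branch and prenylation, 0 changed in either genotype at 24 h, 2 rose and 2 fell in WT, and 1 fell in CsA. Among all 13738 genes, 2483 rose and 2324 fell in WT at 24 h, and 715 rose and 518 fell in CsA. Of 11 LXR targets and genes for efflux and esterification, 1 rose in Cn-Ctl, 0 changed in SM-Cn-/-, 3 rose and 2 fell in WT, and 1 fell in CsA. Of 14 genes for fatty acid synthesis, the branch driven by SREBP-1, 0 changed in either genotype, 1 fell in WT, and 1 rose and 1 fell in CsA, and the medians were all below 0, at -0.41, -0.50, -0.27, and -0.31.

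**Figure D5:**
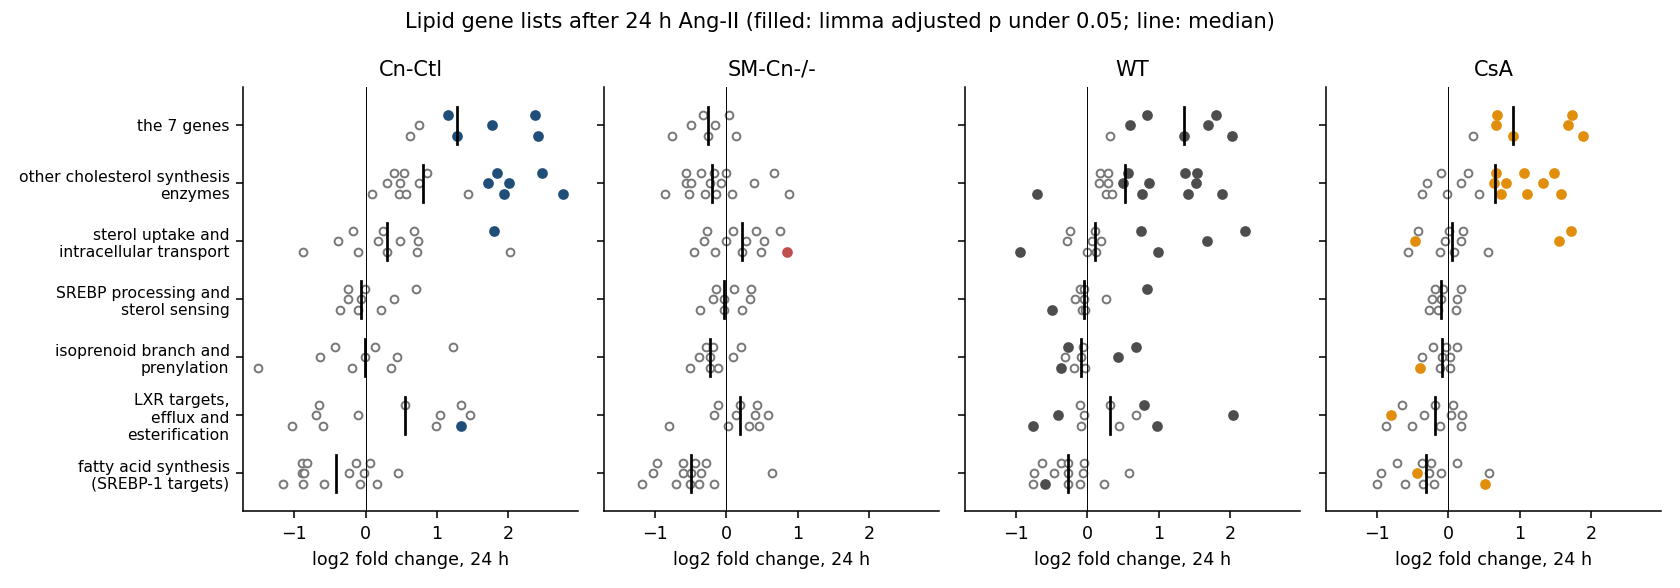
Log2 fold change after 24 h of Ang-II of each tested gene in 7 lists of lipid metabolism, for WT, CsA, Cn-Ctl, and SM-Cn-/- mice, with filled symbols for genes called by limma and a line at the median of each list. The medians in Cn-Ctl and SM-Cn-/- were 1.28 and -0.26 for the 7 genes and 0.81 and -0.20 for the 16 other cholesterol enzymes.

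Other gene groups moved with the same comparisons. Of 15 clock genes, 8 fell and 1 rose in Cn-Ctl at 24 h and 10 fell and 2 rose in WT, and limma called 0 in SM-Cn-/- and 0 in CsA. Among all 14424 genes, 345 fell in Cn-Ctl and 22 in SM-Cn-/- at 24 h. Among all 13738 genes, 2324 fell in WT and 518 in CsA. Their summed signal lay between 2070 and 2173 in untreated Cn-Ctl and between 905 and 1023 at 24 h, and in WT between 2258 and 2379 untreated and between 1155 and 1265 at 24 h. In SM-Cn-/- it lay between 1115 and 1975 untreated and between 1041 and 1518 at 24 h, and in CsA between 1418 and 1710 untreated and between 1227 and 1625 at 24 h, so that untreated and 24 h libraries overlapped in both. Of 10 glucocorticoid-responsive genes, 7 rose at 2 h in Cn-Ctl, where limma called 4.72% of all genes higher. With Cn deleted, 6 of the 10 rose at 2 h, beside 0.984% of all genes. The other experiment had 10 that rose at 2 h without CsA (11.4% of all genes) and 9 under CsA (12.3%). The sums of this list at 2 h were 2042 to 2725 in Cn-Ctl and 1860 to 1969 in SM-Cn-/-. The part of neither list in the response of the 7 genes was tested.

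Cell type markers moved as well. Among all 14424 genes, limma called 327 higher and 386 lower in SM-Cn-/- than in Cn-Ctl at 24 h. In untreated CsA against WT, 13.9% of all genes were called higher and 11.4% lower, and 18.1% rose in WT at 24 h. At 24 h, the 8 endothelial markers summed to 1161 to 1228 in SM-Cn-/- and to 530 to 547 in Cn-Ctl, with 2 called higher, and the 8 smooth muscle markers summed to 24703 to 27540 and 27605 to 49663, with 1 called lower. The 10 adipocyte markers summed to 2516 to 4127 in SM-Cn-/- and to 984 to 3360 in Cn-Ctl, and 0 were called. Some of these sums were already apart in untreated mice. Untreated, the endothelial sums were 613 to 775 in SM-Cn-/- and 377 to 494 in Cn-Ctl. The smooth muscle sums were then 21042 to 24507 and 28676 to 29316, while the adipocyte sums overlapped, at 933 to 4262 and 1017 to 1681. In untreated CsA mice, where Hmgcs1 was higher and Srebf2 lower than in WT, 9 of 10 adipocyte markers, 7 of 8 endothelial markers, and 8 of 9 tested macrophage and leukocyte markers were higher and 7 of 8 smooth muscle markers were lower, and at 24 h in WT 7 of these macrophage markers rose. Their part in the values of the 7 genes was not tested.

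Among the other marker lists at 24 h, 1 of 8 adventitial fibroblast markers rose in Cn-Ctl and 0 were called in SM-Cn-/-, 3 rose and 1 fell in WT, and 1 rose and 1 fell in CsA. Of all genes, 3.22% rose in Cn-Ctl, 18.1% in WT, and 5.2% in CsA, and 2324 of 13738 fell in WT and 518 in CsA. Of the skeletal and cardiac muscle markers, limma called 0 of 8 in Cn-Ctl and 0 of 8 in SM-Cn-/-, and of the 7 tested in the CsA experiment 0 were called in WT and 2 fell in CsA. Their summed signal in CsA was 146 to 1796 untreated, 33.3 to 90.6 at 2 h, and 76.0 to 81.9 at 24 h. In WT it was 64.0 to 443 untreated, 33.4 to 434 at 2 h, and 98.8 to 493 at 24 h. The part of this muscle signal in the CsA fold changes was not tested. No blood marker was called in any comparison.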

How the data were processed

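RNA was measured in 40 libraries of mouse aorta, put into 14 groups by the labels (genotype or drug, and time under Ang-II). Each library held RNA from 3 aortas, and per the submitters' processing notes reads were handled with Bowtie 0.12.7 and RSEM 1.16 on GRCm38. The deposited signal is reads plus 0.5, which the authors divided by a library size scaled between libraries. This was found from the values, of which 100% convert to whole reads (within 1e-06 reads). The authors' scaling is therefore part of every value, and the 2 tables, scaled separately, were never tested against each other. The lowest depth, 2728007 reads, left 24 or more reads for each of the 7 genes in every library. Lists of 16 kinds, the 7 genes included, and the members themselves were chosen with earlier results of these data known.

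Genes were matched to GENCODE mouse release 21. Protein-coding genes with a signal of at least 1 in at least 2 libraries were tested (14424 and 13738). In 22 comparisons, log2(signal + 0.5) was fitted with limma 3.58.1 (R 4.3.3, intensity trend) over all groups of an experiment, the adjusted p (Benjamini-Hochberg) covered all tested genes, and calls were made under 0.05. Fold changes are on that log2 scale and understate those of low genes. Scripts were tested on simulated data. Alternatives were TMM, median-ratio, and quantile scaling, pseudocounts of 0.1 and 2, other filters, all genes listed, only the groups compared, no intensity trend, a replicate block, each library left out, and edgeR 4.0.16 (quasi-likelihood) and DESeq2 1.42.0 on the recovered reads.

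In the lists described, up to 4 genes each with the most calls among the Ang-II comparisons could be named, together with the 10 genes most alike to the mean profile. Some genes that this rule covers are not reported here. Libraries of a group differed by more than sampling noise (lowest chi-square per degree of freedom 6.17), so none was counted as a repeat. Motifs were searched as letters in RefSeq windows of GRCm38.p6.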

Additional observations from a re-analysis of the deposited data

Results flagged for a closer look

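The response to Ang-II at 24 h differed between genotypes by the interaction test for 3 genes. The log2 fold change in SM-Cn-/- minus that in Cn-Ctl was -3.14 for Sqle, -2.68 for Fdps, and -2.27 for Idi1 (limma, Benjamini-Hochberg adjusted p = 0.00299, 0.0134, and 0.0299). Sqle at 6 h was also picked out because all 3 Cn-Ctl libraries lay above their untreated libraries and all 3 SM-Cn-/- libraries lay below theirs. Of all genes, 17.4% lay above in this way in Cn-Ctl and 8.76% lay below in SM-Cn-/-. The gap in SM-Cn-/- was narrow, with 19.8 in the highest library at 6 h and 20.1 in the lowest untreated one. The difference between the responses of Sqle was -1.45, which did not pass the interaction test (limma adjusted p = 0.486).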

How the results depend on the processing

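No value changed sign among called results. Of the counts of members called, 269 were within 1.5 times the reported count under the alternatives other than leaving out a library and 17 were not. The 17 were as follows. The count at 2 h in Cn-Ctl (3) was 1 with quantile scaling and 1 with no intensity trend. The count at 6 h in SM-Cn-/- (1) was 0 with only the groups compared. Between the genotypes at 2 h (1), it was 0 with quantile scaling, 0 with no intensity trend, and 2 with DESeq2. The genotype interaction at 2 h (0) was 1 with DESeq2, and that at 24 h (3) was 1 with no intensity trend and 5 with DESeq2. At 2 h in CsA (5), it was 3 with only the groups compared. Between untreated CsA and WT (2), it was 1 with median-ratio scaling, with a pseudocount of 2, with all genes listed, with no intensity trend, and with the replicate block. The CsA interaction at 24 h (0) was 1 with only the groups compared and 1 with DESeq2. The cause was not tested. The median log2 fold change of all genes differed from the reported fit by up to 0.0962 under quantile scaling and by up to 0.0569 under the others. Medians of the 7 genes moved under none of these.

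Leaving out 1 library at a time gave counts of 1 to 3 in Cn-Ctl at 2 h, 2 to 4 in Cn-Ctl at 24 h, 0 to 1 in SM-Cn-/- at 6 h, 0 to 2, 0 to 1, and 3 to 5 between the genotypes at 2, 6, and 24 h, 1 to 4 for the genotype interaction at 24 h, 0 to 1 between untreated CsA and WT, and 0 to 1 for the CsA interaction at 24 h. The median log2 fold change then ran from -0.19 to 0.062 in Cn-Ctl at 6 h, from 1.11 to 1.44 in Cn-Ctl at 24 h, from -0.30 to 0.062 between the genotypes at 6 h, and from -0.31 to -0.047 between untreated CsA and WT. Where 1 library was left in a group, it was assumed to vary like the other groups.

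Replicate numbers are shared between groups, but they name no shared animal or day, and the correlation of deviations between libraries of the same number ran from -0.39 to 0.38 over 46 pairs, above 0.1 in 15. All 3 pairs were above 0.1 (0.17, 0.38, and 0.36) between untreated CsA and CsA at 2 h, where the block left the count at 5, and in no other comparison with 3 pairs. The replicate block changed the count of members called in 3 of 22 comparisons, from 3 to 2 in Cn-Ctl at 2 h, from 3 to 4 for the genotype interaction at 24 h, and from 2 to 1 between untreated CsA and WT. With 2 libraries in untreated Cn-Ctl and in Cn-Ctl at 24 h, and with the lowest depths in the genotype experiment, a difference that was not called there may be under the limit of detection.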
